A study of Homo sapiens with 6 samples.

Results

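The genes of the epithelial and mesenchymal state are a list of 43 symbols for cadherins, tight junction and desmosome proteins, keratins, epithelial regulators, mesenchymal genes, transcription factors of the epithelial to mesenchymal transition (EMT), TGF-beta signalling genes and integrins. They were found by symbol among the 27470 genes counted in the series, and 43 of 43 were in the table. RNA came from 22Rv1, a line of human prostate cancer cells that grow without androgen. These cells carry ABHD5, the gene of the coactivator of the triglyceride lipase ATGL, behind a doxycycline (Dox)-inducible promoter on the pInducer20 lentiviral vector. The line was selected with G418, and whether it is 1 clone is not stated. The 3 libraries titled Control came from these cells without Dox and the 3 titled OE, for overexpressing ABHD5, from the same cells with Dox, both at 48 h, and the sources used here give no Dox dose for these libraries in particular. None of the 6 libraries came from parent cells with Dox, so Dox and ABHD5 cannot be told apart. The labels do not say whether the replicates were separate cultures, so p-values measure only the spread between these libraries, which may be technical.

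Epithelial cells hold together through adherens junctions built on E-cadherin, through tight junctions that seal the space between cells, and through desmosomes that tie neighbouring keratin networks to each other. In EMT, transcription factors of the SNAI, ZEB and TWIST families bind E-box sequences and repress epithelial genes, while N-cadherin, vimentin and matrix proteins become more abundant. TGF-beta, which signals through its type I and type II receptors to SMAD2 and SMAD3 with SMAD4, is a well known inducer of that program, and SMAD7 is its feedback inhibitor. Luminal prostate cancer cells are epithelial and express KRT8 and KRT18, whereas KRT5 marks basal cells.

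With Dox, the members did not move as a block in either direction. Levels are given in CPM, the counts per 1000000 counts on genes after TMM normalization. ABHD5 itself had 63.5, 58.0 and 62.8 CPM without Dox and 126, 131 and 91.7 CPM with Dox. Each library with Dox was above each library without it (log2 fold change 0.91, standard error 0.15, edgeR adjusted p = 1.978e-04). Reads came from the end of the transcript, and the sources used here do not describe the end of the transgene's transcript. The share of transgene reads in these counts was not tested, so this rise need not measure the induction. In edgeR's test of 12233 genes, with the threshold set at an adjusted p of 0.05, 14 members differed, of which 10 rose and 4 fell. The transcription factor gene TWIST1, the TGF-beta ligand genes TGFB1 and TGFB2, CDH2, CLDN1, DSP, DSC2, ST14, SMAD3 and ITGB1 rose. EPCAM, CLDN4, KRT18 and KRT19 fell. CDH1, which encodes E-cadherin, gave -0.12 (standard error 0.15) on the log2 scale and was not past the threshold. So genes of the junctions changed in both directions, and the mesenchymal genes VIM, SPARC and MMP2 and the EMT factor genes ZEB1, ZEB2 and SNAI1 had too few counts for a test. In bulk RNA, fewer cells in some state and less RNA per cell cannot be told apart.

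Counts on genes ranged from 3394672 to 7271771 per library. The libraries were made with a kit that primes at the poly(A) tail, so reads come from the end of the transcript and splice forms are not seen. The limit of detection was taken as 3 counts, which were 0.394 to 0.930 CPM. Of the 43 members, 31 passed edgeR's filter on low counts and were tested, and OCLN, KRT5, KRT7, VIM, SPARC, MMP2, ZEB1, ZEB2, SNAI1, TGFBR2, ITGA5 and ITGB6 were not. The 10 that rose were 32.3% of those tested, against 11.9% of all genes tested, and the 4 that fell were 12.9%, against 13.7%. The median log2 fold change of the tested members was -0.04, against 0.02 over all genes tested, and the median absolute value was 0.55, against 0.30. Of the 10 that rose, CDH2, CLDN1, TGFB1 and TGFB2 had fewer than 10 counts in at least 1 library without Dox, and they passed the filter through the libraries with Dox, so these shares do not support a statement about the list. Of the 31 tested members, the libraries did not overlap between conditions in 12 that were higher and 5 that were lower with Dox. Over all genes tested, 19.0% were higher and 20.5% lower in this way. CDH2, CLDN1, TGFB1 and TGFB2 are among the 12. So is SMAD7, which also had fewer than 10 counts in at least 1 library without Dox. These counts therefore do not support a statement about the list either.

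**Figure D1:**
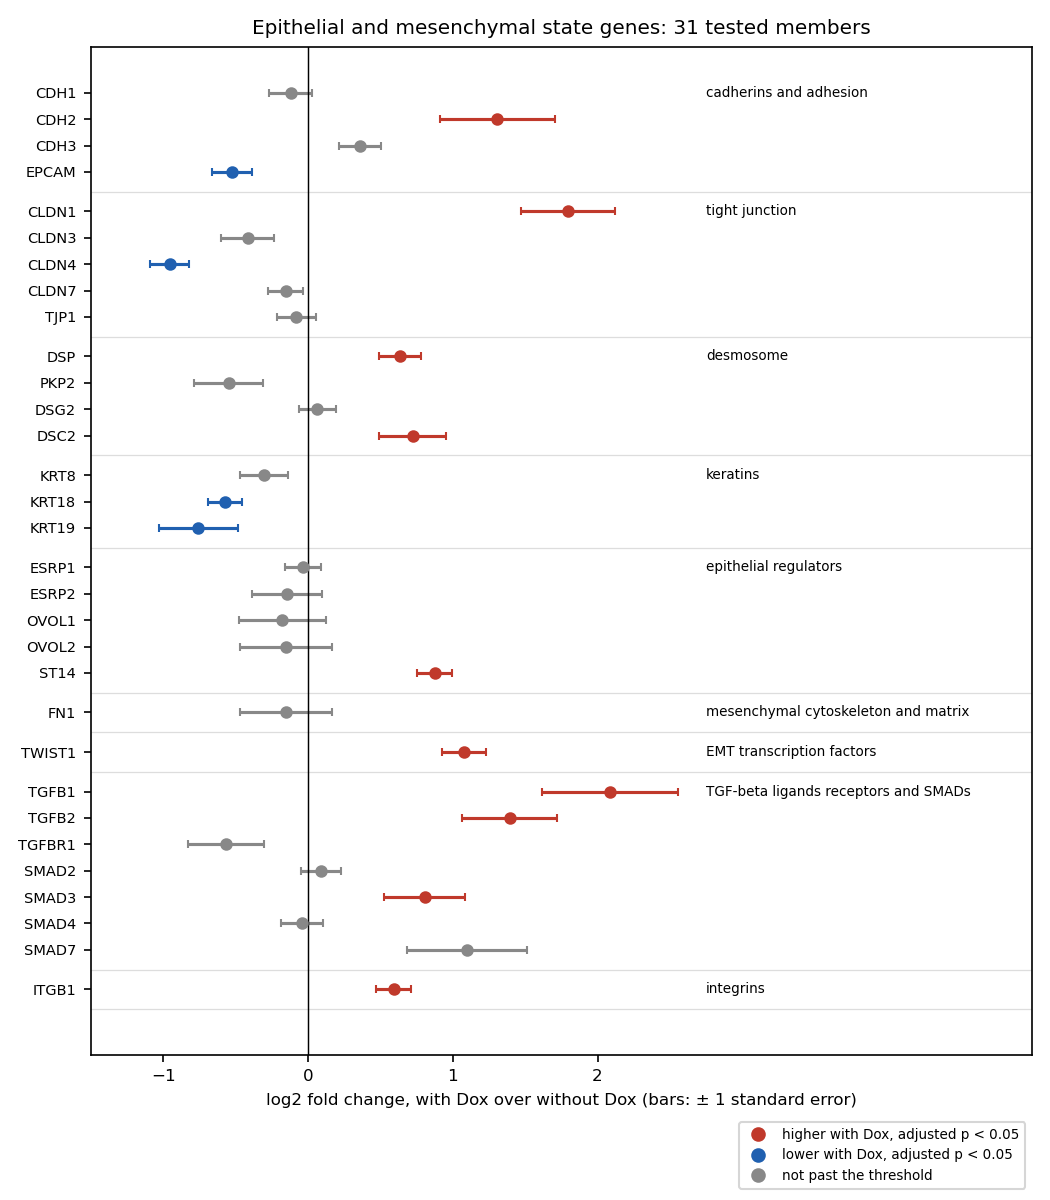
Log2 fold change (with Dox over without Dox, x axis) of the 31 tested members (y axis), grouped by role, from edgeR over 3 libraries per condition, with bars of 1 standard error. Red points were higher and blue points lower at an adjusted p under 0.05, and the values span -0.96 for CLDN4 to 2.08 for TGFB1.

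Promoter sequences were taken from RefSeq (GRCh38.p14, the assembly that hg38 names) for the members that differed and have 1 listed start site, to show the sequence before that start in genes that differed. RefSeq's start can differ from the outermost start in GENCODE, whose gene coordinates are given below, so the CLDN4 and DSP windows lie inside the gene spans given there. The windows are the 250 bases before the RefSeq start, 5′ to 3′ on the strand of the gene. Capitals mark 3 motifs searched on both strands, where GC boxes may overlap each other: the E-box CAGGTG that ZEB and SNAI factors bind, the GC box GGGCGG bound by SP1, and the AP-1 site TGACTCA.
CLDN4 (chr7:73830746-73830995, forward strand): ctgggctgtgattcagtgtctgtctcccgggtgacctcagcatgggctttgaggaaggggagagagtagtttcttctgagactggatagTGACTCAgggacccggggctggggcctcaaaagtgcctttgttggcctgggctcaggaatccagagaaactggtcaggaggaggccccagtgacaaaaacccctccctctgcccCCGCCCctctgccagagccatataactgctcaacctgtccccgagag
CLDN1 (chr3:190322447-190322696, reverse strand): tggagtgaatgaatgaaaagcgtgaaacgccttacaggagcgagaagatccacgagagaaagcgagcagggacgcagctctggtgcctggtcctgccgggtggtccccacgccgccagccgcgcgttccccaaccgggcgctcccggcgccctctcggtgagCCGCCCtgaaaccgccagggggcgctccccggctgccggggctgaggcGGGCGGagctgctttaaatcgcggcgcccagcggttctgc
DSP (chr6:7541421-7541670, forward strand): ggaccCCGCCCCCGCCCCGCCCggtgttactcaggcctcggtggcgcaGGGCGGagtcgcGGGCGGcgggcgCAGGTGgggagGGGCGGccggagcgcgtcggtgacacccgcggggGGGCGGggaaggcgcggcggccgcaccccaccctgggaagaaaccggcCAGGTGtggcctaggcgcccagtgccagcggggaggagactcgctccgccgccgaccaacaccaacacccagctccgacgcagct
TGFB1 (chr19:41353923-41354172, reverse strand): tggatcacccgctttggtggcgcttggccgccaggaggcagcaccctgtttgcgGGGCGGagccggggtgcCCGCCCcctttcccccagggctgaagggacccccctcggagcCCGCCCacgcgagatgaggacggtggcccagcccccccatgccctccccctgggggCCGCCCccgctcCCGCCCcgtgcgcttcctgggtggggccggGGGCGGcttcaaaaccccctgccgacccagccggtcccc
TGFB2 (chr1:218345086-218345335, forward strand): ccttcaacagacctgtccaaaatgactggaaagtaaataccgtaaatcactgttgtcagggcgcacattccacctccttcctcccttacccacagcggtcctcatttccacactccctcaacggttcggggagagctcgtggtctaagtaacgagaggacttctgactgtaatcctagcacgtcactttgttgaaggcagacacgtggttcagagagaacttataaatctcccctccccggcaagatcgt

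The CLDN4 window held 1 GC box and 1 AP-1 site and no CAGGTG. The CLDN1 window held 2 GC boxes and neither of the other motifs. The DSP window held 2 copies of CAGGTG and 7 GC boxes, the TGFB1 window 6 GC boxes, and the TGFB2 window none of the 3 motifs. Of all 35116 promoter windows of this length in the table, 17.5% held CAGGTG, 42.6% GGGCGG and 4.20% TGACTCA. Windows of 28 members were in the table, and at 1 or more of their start sites 12 of these members had CAGGTG, 21 had GGGCGG and 2 had TGACTCA. Members with several start sites have several chances to hold a motif, so these counts cannot be set against the shares. Not in the table were CDH1, CDH3, EPCAM, ESRP1, ESRP2, KRT7, KRT18, KRT19, MMP2, OVOL1, OVOL2, PKP2, SNAI1, ST14 and TWIST1.

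Among the cadherins, CDH2 rose and CDH1 and CDH3 did not pass the threshold. CDH2, the gene of N-cadherin (chromosome 18 from 27932879 to 28177946 of hg38), had 7, 6 and 9 counts without Dox and 22, 19 and 25 counts with Dox. In CPM these were 1.83, 1.86 and 1.57 CPM without Dox and 4.78, 5.29 and 3.28 CPM with Dox, so the groups did not overlap, although the levels stayed close to the limit of detection (log2 fold change 1.31, standard error 0.40, edgeR adjusted p = 0.0221). The call rests on few reads. It was lost without replicate 1 or 3 without Dox, without replicate 1 or 2 with Dox and with DESeq2, with adjusted p from 0.0531 to 0.0861. CDH1, the gene of E-cadherin (chromosome 16 from 68737292 to 68835537), had 276, 226 and 288 CPM without Dox and 252, 191 and 283 CPM with Dox (log2 fold change -0.12, standard error 0.15, edgeR adjusted p = 0.600). Its libraries overlapped, and replicate 2 was the lowest in each condition. CDH3, the gene of P-cadherin, lies just before CDH1 on the same chromosome and had 41.5, 40.9 and 36.5 CPM without Dox and 53.5, 44.8 and 53.2 CPM with Dox. Each library with Dox was above each library without Dox, at a log2 fold change of 0.36 (edgeR adjusted p = 0.0815), and CDH3 passed the threshold without replicate 2 with Dox (0.43, edgeR adjusted p = 0.0431) and under library totals alone or upper-quartile scaling.

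EPCAM, which encodes an epithelial adhesion protein and lies on chromosome 2 from 47345158 to 47387601, fell. It had 123, 154 and 162 CPM without Dox and 115, 98.0 and 93.1 CPM with Dox, with no overlap between the conditions (log2 fold change -0.52, standard error 0.14, edgeR adjusted p = 0.00955). Without replicate 3 without Dox the log2 fold change was -0.44 and the call was lost (edgeR adjusted p = 0.0514).

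**Figure D2:**
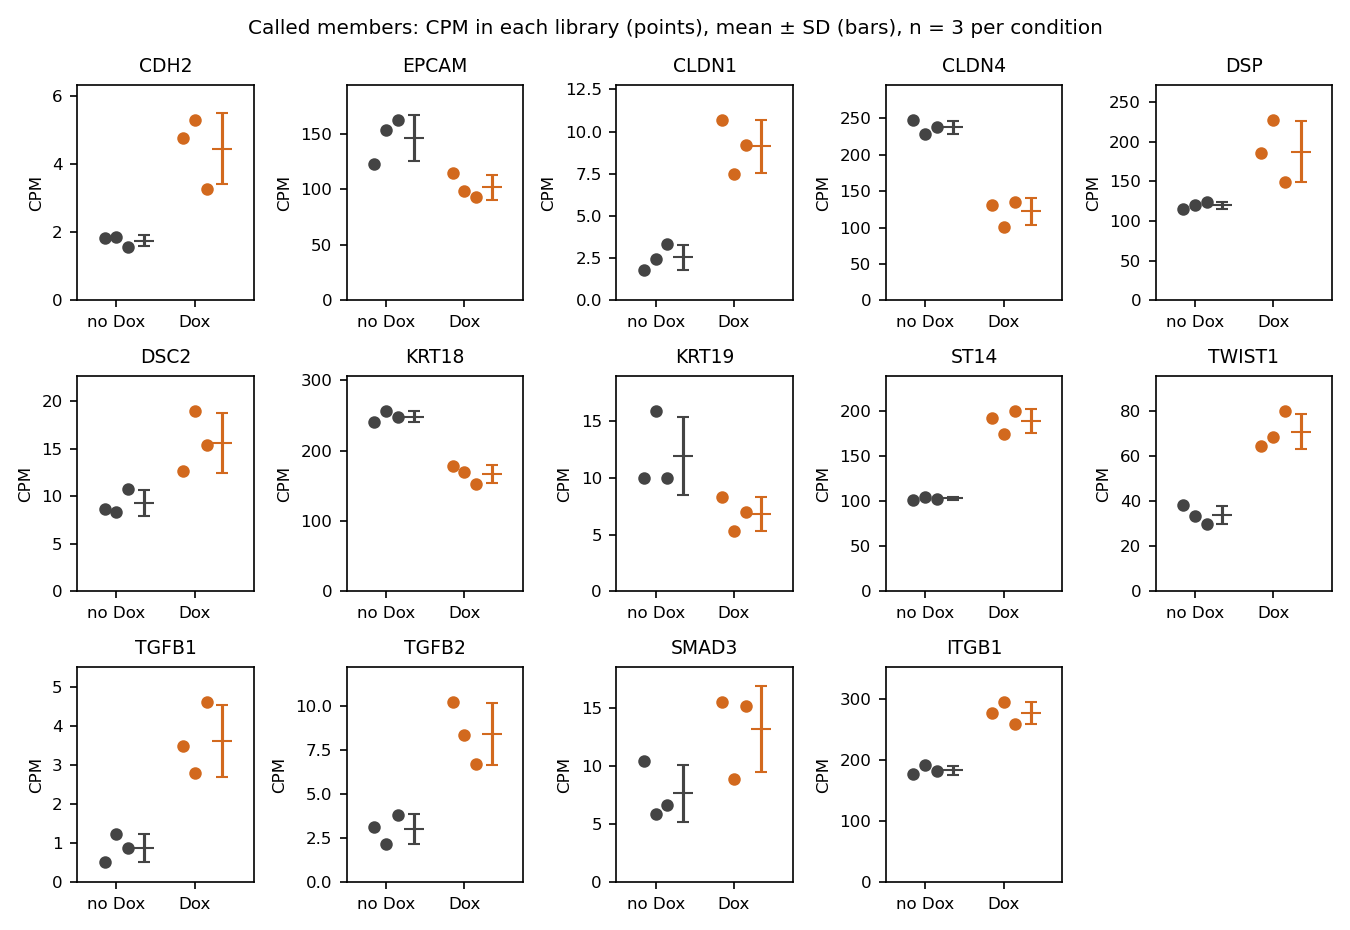
CPM (y axis, from 0) in each of the 3 libraries without Dox (dark grey) and 3 with Dox (orange) for the 14 members past the threshold, with the mean ± SD beside the points. SMAD3 is the member whose libraries overlap, and the levels of CDH2, CLDN1, TGFB1 and TGFB2 without Dox lie below 5 CPM.

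Of the tight junction genes, CLDN4 fell, CLDN1 rose, CLDN3, CLDN7 and TJP1 were not past the threshold and OCLN was not tested. CLDN4 (chromosome 7 from 73799542 to 73832690) encodes a claudin, the membrane protein that forms the seal between cells, and was 1.94-fold lower with Dox. It had 247, 229 and 238 CPM without Dox and 131, 101 and 135 CPM with Dox, so the highest library with Dox lay far below the lowest without it (log2 fold change -0.96, standard error 0.13, edgeR adjusted p = 3.971e-05). CLDN1 (chromosome 3 from 190305707 to 190322446), another claudin gene, moved the other way and was 3.48-fold higher. It had 7, 8 and 19 counts without Dox and 49, 27 and 70 counts with Dox, or 1.83, 2.48 and 3.32 CPM without Dox and 10.7, 7.51 and 9.19 CPM with Dox (log2 fold change 1.80, standard error 0.33, edgeR adjusted p = 5.521e-04). All libraries with Dox were above all libraries without Dox for CLDN1, from a level near the limit of detection. CLDN3, the claudin gene next to CLDN4, had 81.5, 76.3 and 58.7 CPM without Dox and 58.1, 37.0 and 64.4 CPM with Dox. Its libraries overlapped at -0.42 (standard error 0.18) on the log2 scale, and it passed the threshold only without a filter, without replicate 3 without Dox (-0.55) or without replicate 3 with Dox (-0.58, edgeR adjusted p = 0.0300 to 0.0478). CLDN7, a claudin gene with 278 to 344 CPM over the 6 libraries and a log2 fold change of -0.15, and TJP1, which encodes a scaffold protein under the tight junction, with 78.8 to 103 CPM and -0.08, were not past the threshold (edgeR adjusted p = 0.389 and 0.706). The CLDN7 gene shares its end with ELP5 on the opposite strand, and whether reads were counted by strand is not stated. OCLN, the gene of occludin, had 3, 6 and 5 counts without Dox and 15, 3 and 0 counts with Dox and was not tested.

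The desmosome genes DSP and DSC2 rose. DSP (chromosome 6 from 7541338 to 7586714), whose product desmoplakin links the desmosome to keratin filaments, had 115, 120.0 and 124 CPM without Dox and 186, 227 and 149.6 CPM with Dox. Its libraries did not overlap, although those with Dox were spread more widely (log2 fold change 0.64, standard error 0.14, edgeR adjusted p = 0.00346). DSC2, the gene of the desmosomal cadherin desmocollin (chromosome 18 from 31058840 to 31102522), had 8.62, 8.37 and 10.8 CPM without Dox and 12.6, 18.9 and 15.4 CPM with Dox (log2 fold change 0.72, standard error 0.23, edgeR adjusted p = 0.0301). It lost its call without replicate 1 or 2 without Dox and without replicate 2 or 3 with Dox, at log2 fold changes of 0.58 to 0.73 (edgeR adjusted p = 0.0508 to 0.108). The gene of its partner desmoglein, DSG2, had 61.1, 58.9 and 62.0 CPM without Dox and 63.5, 62.9 and 64.0 CPM with Dox. Its libraries did not overlap either, yet the log2 fold change was 0.06 (edgeR adjusted p = 0.761). PKP2, which encodes a plaque protein of the desmosome, had 11.8, 14.3 and 17.8 CPM without Dox and 8.05, 12.2 and 10.2 CPM with Dox. Replicate 2 with Dox lay above replicate 1 without Dox, and the log2 fold change was -0.55 (edgeR adjusted p = 0.105).

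Of the keratin genes, KRT18 and KRT19 fell and KRT8 was not past the threshold. KRT18 (chromosome 12 from 52948871 to 52952906), the type I keratin of simple epithelia, had 240.3, 256 and 248 CPM without Dox and 178, 169.8 and 153 CPM with Dox (log2 fold change -0.57, standard error 0.12, edgeR adjusted p = 0.00189). The libraries with Dox were all lower. Its type II partner KRT8 had 64.5, 47.8 and 66.0 CPM without Dox and 56.8, 39.0 and 49.1 CPM with Dox, with overlap between the conditions and a log2 fold change of -0.30 (edgeR adjusted p = 0.201). KRT19, another simple epithelial keratin gene, had 9.93, 15.8 and 9.95 CPM without Dox and 8.26, 5.29 and 6.96 CPM with Dox (log2 fold change -0.76, standard error 0.27, edgeR adjusted p = 0.0496). This call is at the edge of the threshold, and it was lost in 12 of 14 alternative settings, each library left out in turn and the replicate block included, with adjusted p up to 0.239 without replicate 2 without Dox. KRT8, KRT18 and KRT19 have processed pseudogenes that could share reads with them. The table has rows for KRT8P41, KRT18P55 and KRT19P2, with at most 1, 9 and 0 counts in any library. How reads that match a gene and a pseudogene alike were counted is not stated. These rows therefore cannot show whether such reads were lost. KRT5, the basal keratin, had 0 counts in each library, and KRT7, a keratin of glandular epithelia, had 2, 0 and 1 counts without Dox and 4, 4 and 5 counts with Dox.

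Among the epithelial regulators, ST14 rose and the others were not past the threshold. ST14 (chromosome 11 from 130159782 to 130210362) encodes matriptase, a serine protease of the epithelial surface. It had 102, 105 and 103 CPM without Dox and 193, 174 and 199.8 CPM with Dox, a 1.83-fold rise with almost no spread among the libraries without Dox (log2 fold change 0.88, standard error 0.12, edgeR adjusted p = 3.903e-05). The splicing regulators ESRP1 and ESRP2, which maintain epithelial splice forms, were at log2 fold changes of -0.03 (standard error 0.12) and -0.14 (standard error 0.24). ESRP1 had 103, 96.8 and 101 CPM without Dox and 99.8, 102 and 92.1 CPM with Dox, with the conditions interleaved, and ESRP2 had 8.41 to 11.2 CPM over the 6 libraries. OVOL1 and OVOL2, transcription factors that restrain EMT, had -0.18 (standard error 0.30) and -0.15 (standard error 0.31) on the log2 scale, at 4.45 to 7.13 CPM and 3.90 to 7.39 CPM. The annotated end of ESRP2 lies within NFATC3 on the opposite strand, and that of OVOL2 within SNX5 on the same strand, so reads there could be left out or misassigned.

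The mesenchymal genes were mostly near or under the limit of detection in both conditions. VIM, the gene of the intermediate filament vimentin, had 3, 4 and 9 counts without Dox and 7, 12 and 27 counts with Dox, which did not pass the filter. In CPM these were 0.784, 1.24 and 1.57 CPM without Dox and 1.52, 3.34 and 3.55 CPM with Dox, with overlap, and fitted without a filter its log2 fold change was 1.17 (edgeR adjusted p = 0.127). FN1, which encodes the matrix protein fibronectin, had 7.31, 7.13 and 5.94 CPM without Dox and 3.48, 6.96 and 7.49 CPM with Dox (log2 fold change -0.15, standard error 0.32, edgeR adjusted p = 0.768). SPARC, the gene of a matrix-binding glycoprotein, had 1 count over all libraries and the matrix protease gene MMP2 had 0, which at these totals allows up to 0.930 CPM in the shallowest library.

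TWIST1 was the EMT factor gene with a level far above the limit, and it rose. TWIST1 (chromosome 7 from 19020991 to 19117636) encodes a basic helix-loop-helix factor that binds E-boxes. It had 146, 108 and 171 counts without Dox and 296, 246 and 607 counts with Dox. In CPM these were 38.1, 33.5 and 29.8 CPM without Dox and 64.4, 68.5 and 79.7 CPM with Dox, so all libraries with Dox lay above all without it, at a 2.11-fold rise (log2 fold change 1.08, standard error 0.15, edgeR adjusted p = 4.680e-05). With each library left out in turn the log2 fold change was 0.98 to 1.17, and it was called each time. The other EMT factors did not pass the filter. ZEB1 had 4, 2 and 5 counts without Dox and 4, 6 and 5 counts with Dox. ZEB2 had 0, 0 and 1 counts without Dox and 0, 0 and 1 counts with Dox, and SNAI1 had 1, 0 and 3 counts without Dox and 1, 0 and 0 counts with Dox. A fall or a small rise of these genes was not detectable at this depth.

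The TGF-beta ligand genes TGFB1 and TGFB2 rose from low levels. The ligand gene TGFB3, which is not a member, had a log2 fold change of 0.01 (edgeR adjusted p = 0.975). Its mean was 18.2 CPM without Dox and 18.6 CPM with Dox, above the levels of TGFB1 and TGFB2. TGFB1 (chromosome 19 from 41301587 to 41353922) had 2, 4 and 5 counts without Dox and 16, 10 and 35 counts with Dox. These were 0.522, 1.24 and 0.873 CPM without Dox and 3.48, 2.78 and 4.60 CPM with Dox, with no overlap (log2 fold change 2.08, standard error 0.47, edgeR adjusted p = 0.00337). TGFB1 had the largest log2 fold change among the members, yet it rests on at most 5 counts per library without Dox, so its size is imprecise. Its annotated end overlaps HNRNPUL1 on the opposite strand, a gene with 217, 233 and 191 CPM without Dox and 170.1, 159.7 and 174 CPM with Dox that was lower with Dox (log2 fold change -0.34, edgeR adjusted p = 0.0491), and the part of this overlap in the TGFB1 counts was not tested. TGFB2 (chromosome 1 from 218345336 to 218444619) had 12, 7 and 22 counts without Dox and 47, 30 and 51 counts with Dox. In CPM these were 3.13, 2.17 and 3.84 CPM without Dox and 10.2, 8.35 and 6.70 CPM with Dox, again with no overlap (log2 fold change 1.39, standard error 0.33, edgeR adjusted p = 0.00440). TGFB1 and TGFB2 kept their calls with each library left out in turn, at 1.84 to 2.32 for TGFB1 and 1.23 to 1.62 for TGFB2.

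Of the receptor genes, 1 was not past the threshold and 1 was not tested. TGFBR1, the type I receptor, had 10.2, 10.2 and 10.8 CPM without Dox and 9.13, 5.01 and 6.83 CPM with Dox. The libraries with Dox were all lower, but the change of -0.56 (standard error 0.26) on the log2 scale was not past the threshold (edgeR adjusted p = 0.129). TGFBR2, the type II receptor, had 9, 6 and 10 counts without Dox and 10, 4 and 19 counts with Dox and was not tested.

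Of the SMAD genes, which encode the proteins that carry the signal to the nucleus, SMAD3 was past the threshold and SMAD2 and SMAD4 were not. SMAD3 (chromosome 15 from 67063763 to 67195173) had 10.4, 5.89 and 6.63 CPM without Dox and 15.4, 8.91 and 15.1 CPM with Dox (log2 fold change 0.81, standard error 0.28, edgeR adjusted p = 0.0413). Replicate 2 with Dox was below replicate 1 without Dox, and the call was lost without replicate 2 or 3 without Dox, without replicate 1 or 3 with Dox, in DESeq2 and in the authors' normalized signal, at log2 fold changes of 0.68 to 0.80 (adjusted p = 0.0578 to 0.145). SMAD2 had 73.8 to 99.6 CPM over the 6 libraries and a log2 fold change of 0.09 (edgeR adjusted p = 0.677). SMAD4 had 45.9 to 62.0 CPM and -0.04 (edgeR adjusted p = 0.871). SMAD7, the inhibitory SMAD that TGF-beta signalling induces, had 7, 3 and 16 counts without Dox and 25, 13 and 29 counts with Dox. Its libraries did not overlap, and its log2 fold change of 1.10 (edgeR adjusted p = 0.0596) was just outside the threshold. SMAD7 passed it without replicate 3 without Dox (1.58, edgeR adjusted p = 0.0394), with upper-quartile scaling and under library totals alone.

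Of the integrins, ITGB1 rose. ITGB1 (chromosome 10 from 32887273 to 33005792), the beta subunit shared by most matrix receptors of adherent cells, had 177, 191 and 181 CPM without Dox and 276, 294 and 258 CPM with Dox, with no overlap (log2 fold change 0.59, standard error 0.12, edgeR adjusted p = 0.00139). ITGA5, the alpha subunit that pairs with it as a fibronectin receptor, had 8, 7 and 12 counts without Dox and 9, 13 and 48 counts with Dox and was not tested. Its highest library was replicate 3 with Dox, at 6.30 CPM, and the other 5 were between 1.96 and 3.62 CPM. ITGB6, whose product helps to activate latent TGF-beta, had 5, 3 and 4 counts without Dox and 5, 5 and 21 counts with Dox, also with its highest level in replicate 3 with Dox.

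**Figure D3:**
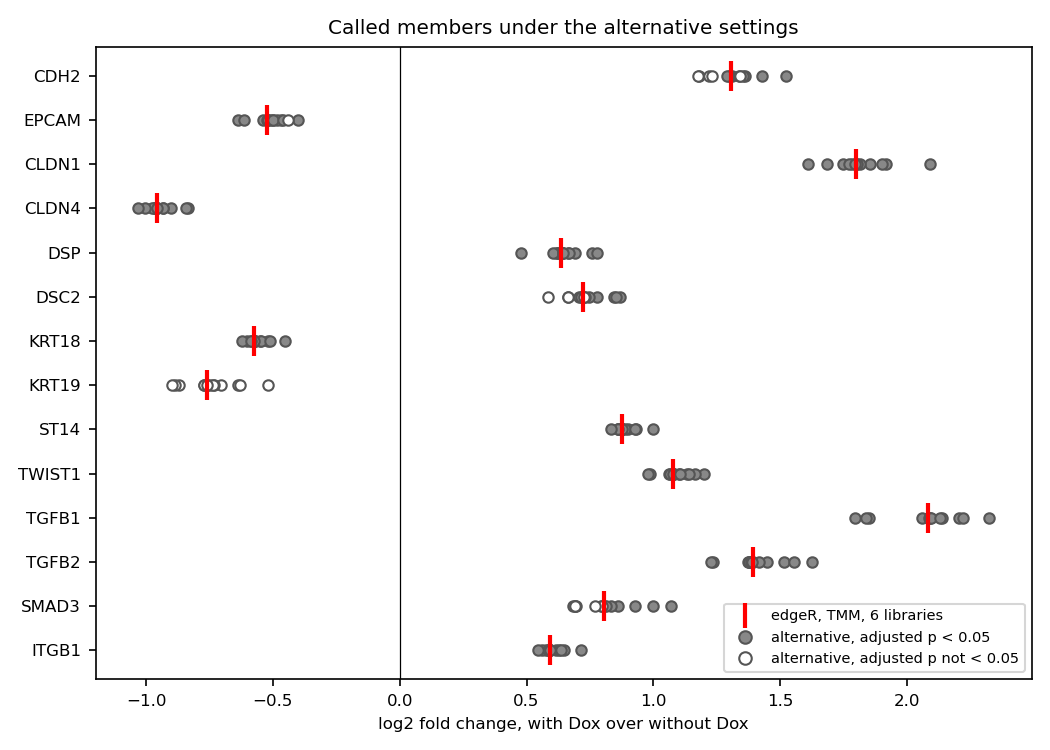
Log2 fold change (with Dox over without Dox, x axis) of the 14 members past the threshold in edgeR with 6 libraries (red bars) and under the alternative settings (points, filled where the adjusted p stayed under 0.05). No point crosses 0, and open points occur for CDH2, EPCAM, DSC2, KRT19 and SMAD3.

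Several members lie within 500 kb of each other in the genome. Among the tested pairs, the distances ran from an overlap for KRT8 and KRT18 to 499190 bases for CDH1 and ESRP2. The ratio of the counts of such a pair within a library does not depend on how libraries are scaled. For the 6 tested pairs within 500 kb, which were chosen after the fold changes were seen, so that the ratios restate those changes without a scaling, the log2 ratio was compared between conditions. The ratio of CLDN4 to CLDN3 was 1.60, 1.58 and 2.02 without Dox and 1.17, 1.45 and 1.06 with Dox, lower in each library with Dox (difference -0.50). The ratio of CDH3 to CDH1 was -2.73, -2.47 and -2.98 without Dox and -2.24, -2.10 and -2.41 with Dox, higher in each library with Dox (difference 0.48). The ratio of DSC2 to DSG2 was -2.83, -2.81 and -2.52 without Dox and -2.33, -1.73 and -2.06 with Dox, also higher in each library with Dox (difference 0.68). The ratio of ESRP2 to CDH3 was lower in each library with Dox (difference -0.49). The ratios of KRT18 to KRT8 (difference -0.27) and of ESRP2 to CDH1 (difference -0.01) overlapped between the conditions. With 3 against 3 libraries the smallest p of an exact permutation test is 0.1. The 4 ratios without overlap reached it (both tails, exact permutation test, p = 0.1, adjusted p = 0.15 over 6 pairs), so no pair could pass 0.05.

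**Figure D4:**
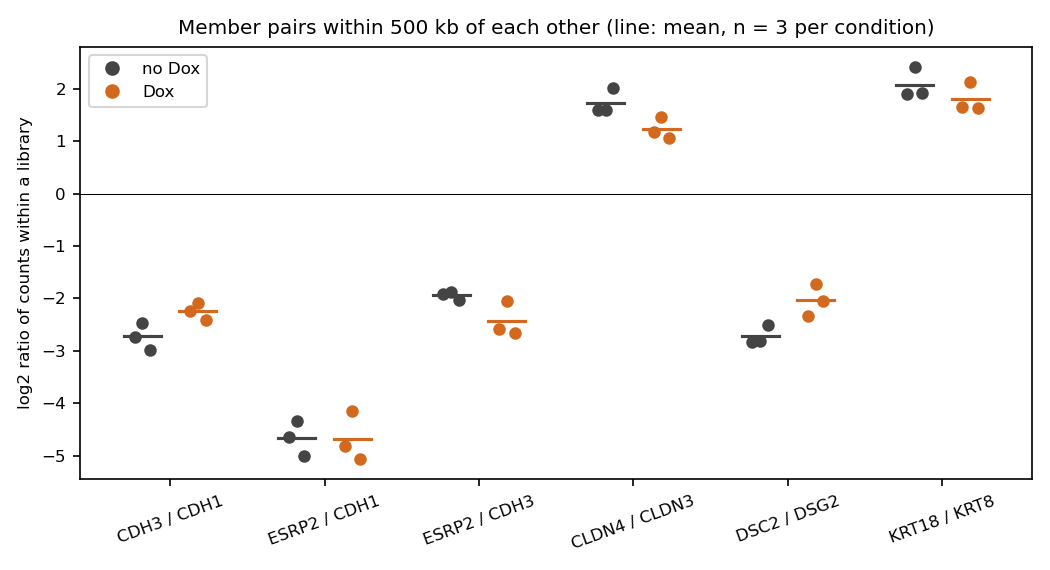
Log2 ratio of the counts of paired members within 500 kb of each other, taken within each library (y axis), for the 6 tested pairs (x axis). Points are without Dox (dark grey) and with Dox (orange), with a line at the mean of 3 libraries. The conditions are apart for 4 pairs, for example a mean of 1.73 ± 0.25 against 1.23 ± 0.20 (SD, n = 3) for CLDN4 to CLDN3, and overlap for the others.

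Other genes of the same processes were read from 4 lists of 146 genes in all, of which 94 were tested. Of these, 16 rose (17%) and 17 fell (18.1%), against 11.9% and 13.7% of all genes tested. Several that rose, such as PPL, LTBP2 and CNN1, had fewer than 10 counts in at least 1 library without Dox. A filter that the libraries with Dox could satisfy favours such rises. With at least 10 counts in every library, 11 rose and 16 fell. The lists were also chosen with earlier results of these data known, so nothing is read from these shares. Of 29 tested junction and polarity genes outside the members, 3 rose and 2 fell (10.3% and 6.9%, under the shares over all genes), with a median log2 fold change of 0.07, against 0.02 over all genes. CGN, the gene of the tight junction plaque protein cingulin, fell, with 131, 122 and 138 CPM without Dox and 37.0, 31.2 and 42.3 CPM with Dox (log2 fold change -1.81, standard error 0.14, edgeR adjusted p = 5.248e-08). NECTIN3, an adhesion gene, had -0.84. PPL, which encodes the plakin periplakin, had 1.70, CLDN15 0.74 and F11R, a junctional adhesion gene, 0.39. The catenin genes that link cadherins to actin, CTNNA1 (-0.10) and CTNNB1 (0.31), and JUP (0.21) were not past the threshold.

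Of 12 further epithelial genes tested, 5 fell (41.7%, against 13.7% of all genes tested) and 0 rose (against 11.9%), with a median log2 fold change of -0.14. The libraries did not overlap in 2 that were higher and 5 that were lower with Dox, against 19.0% and 20.5% of all genes tested. The list was chosen with earlier results of these data known, so these shares are not independent support for a trend. The epithelial transcription factor genes ELF3 and EHF, of the ETS family, were -1.19 (standard error 0.12) and -1.56 (standard error 0.19). ELF3 had 202, 212 and 197 CPM without Dox and 83.7, 94.1 and 89.8 CPM with Dox, and EHF had 108, 116 and 119 CPM without Dox and 40.2, 52.9 and 26.1 CPM with Dox. MAL2, a gene of apical membrane traffic, had -0.80. GRHL2, the gene of another epithelial factor, had -0.13 (edgeR adjusted p = 0.622). Of 16 further mesenchymal, matrix and integrin genes tested, 7 rose and 4 fell (43.8% and 25%, against 11.9% and 13.7% of all genes tested), with a median of 0.44. Of the 7 that rose, CNN1, S100A4, COL1A1 and ITGA3 had fewer than 10 counts in at least 1 library without Dox, so a filter that the libraries with Dox could satisfy favours rises here, and nothing is read from these shares or this median. CNN1, a calponin gene of contractile cells, had 3, 1 and 5 counts without Dox and 38, 26 and 76 counts with Dox (log2 fold change 3.58, standard error 0.42, edgeR adjusted p = 7.520e-06). TIMP1, an inhibitor of matrix proteases, had 1.09, and COL6A1, a collagen gene, 1.39. The integrin genes ITGB5 (-1.11) and ITGA6 (-1.84) and the hyaluronan receptor gene CD44 (-0.83) fell. Of this list 19 genes did not pass the filter, and SNAI2, TWIST2, CDH11 and THY1 had 0 counts in each library.

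Of 37 further genes of the TGF-beta and BMP pathways tested, 6 rose and 6 fell (16.2% each), close to the 11.9% and 13.7% of all genes tested, with a median log2 fold change of 0.14. LTBP1, whose product holds latent TGF-beta in the matrix, rose, with a mean of 10.4 ± 2.34 CPM in the libraries without Dox and 32.4 ± 1.26 CPM in those with Dox (SD, n = 3 each). The difference was larger than this spread (log2 fold change 1.64, standard error 0.20, edgeR adjusted p = 1.002e-05). The BMP target ID3 (1.15) and the ligand gene BMP2 (1.14) also rose. BMPR1B (-1.51), a BMP receptor gene, fell, as did PMEPA1 (-1.13), a target of both TGF-beta and androgens that restrains SMAD signalling, and GDF15 (-0.79), the gene of a distant TGF-beta family ligand. Of the other genes of this list past the threshold, LTBP2 (1.39), BMPR2 (0.55) and JUNB (0.72) rose. CTGF (-0.80), INHBA (-1.31) and SKIL (-0.50) fell. The libraries of JUNB and of CTGF overlapped between the conditions. TGFBI, a well known TGF-beta target, had at most 1 count in any library and was not tested.

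**Figure D5:**
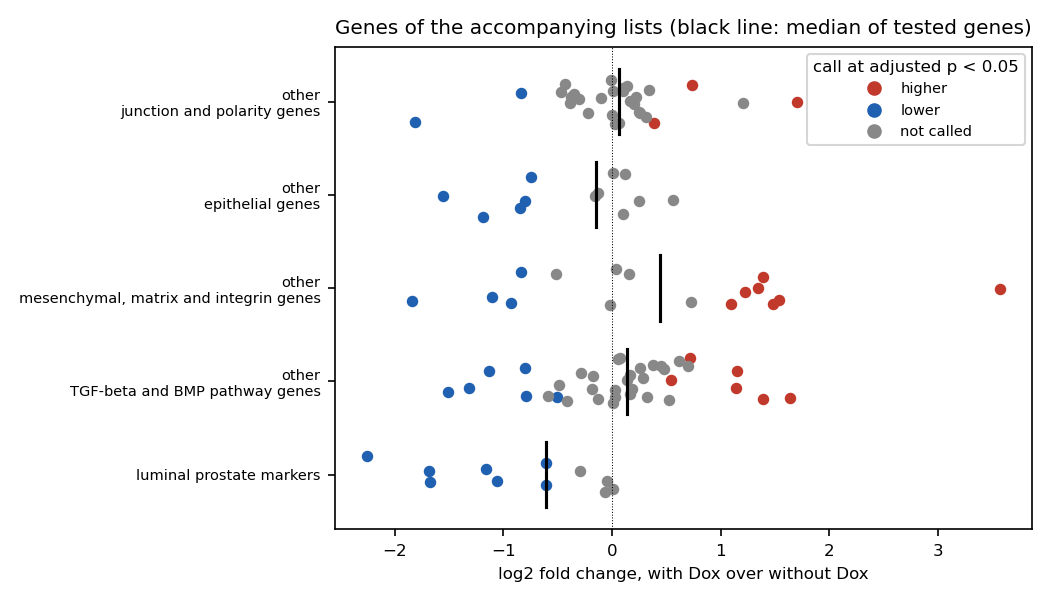
Log2 fold change (with Dox over without Dox, x axis) of the tested genes of 4 lists of related genes and of luminal prostate markers (y axis, 1 point a gene), coloured by call, with a black line at the median. The 11 luminal markers have a median of -0.61, and CNN1, at 3.58, is the farthest point to the right.

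Markers were checked for the cell type named in the labels. All 11 luminal prostate markers were detected, among them HOXB13 and FOXA1, transcription factor genes of the prostate epithelium, with 137 to 174 CPM and 142 to 252 CPM over the 6 libraries. Of these markers 7 were lower with Dox (63.6%, against 13.7% of all genes tested) and 0 were higher (against 11.9%), and SLC45A3, the gene of the prostate protein prostein, had -1.67 (edgeR adjusted p = 2.227e-05). HOXB13 (-0.07) and FOXA1 (-0.04) were not past the threshold. This list too was chosen with earlier results of these data known, so its shares are not independent support for a trend. The part of this list in the changes of the members was not tested. Of 5 basal markers, KRT14 and KRT17 had 0 counts, TP63 and KRT15 had at most 1 and 5, and NGFR had counts of 1, 3 and 1 in the libraries without Dox and 86, 58 and 158 in those with Dox (log2 fold change 5.48, standard error 0.41, edgeR adjusted p = 3.496e-08), a fitted value that rests on very few counts without Dox. The summed level of the basal list was 0.524 to 1.05 CPM without Dox and 16.7 to 21.4 CPM with Dox, and NGFR made up nearly all of the level with Dox. The 7 fibroblast markers summed to 4.96 to 9.60 CPM without Dox and 6.40 to 9.98 CPM with Dox, with COL1A2, COL3A1, PDGFRA and PDGFRB at 0 or 1 count. Of the others in this list, the collagen gene COL1A1 had 14, 5 and 12 counts without Dox and 24, 13 and 58 counts with Dox, with overlap in CPM and a log2 fold change of 1.22 (edgeR adjusted p = 0.0313). LUM, the gene of the matrix proteoglycan lumican, had 9, 9 and 36 counts without Dox and 10, 9 and 18 counts with Dox and -0.78 (edgeR adjusted p = 0.190), and DCN had 1, 2 and 6 counts without Dox and 2, 0 and 0 counts with Dox. The part of such cells in the changes of the members was not tested. The 4 endothelial markers had 1 count in all, and the leukocyte markers CD3E and CSF1R had 0, with the 4 leukocyte markers summing to 0.784 to 1.86 CPM without Dox and 0.657 to 1.11 CPM with Dox.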

How the data were processed

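RNA of 22Rv1-ABHD5 cells was profiled by 3ʹ mRNA sequencing without and with Dox (3 libraries each, grouped by title). The authors aligned the reads with STAR to hg38 and deposited raw counts for each gene symbol. HTSeq and edgeR are named in the submitters' processing notes. The annotation and strand setting are not given in the sources used here, and the paper names the REV kit but the labels the FWD kit. The authors also deposited a normalized signal per library, scaled by a method that is not stated. Rows that name no gene (no feature, 32.5% to 39.5%, and ambiguous, 3.05% to 3.37% of reads) were left out.

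Counts of all genes were tested with edgeR 4.0.16 (filterByExpr, TMM, quasi-likelihood test, Benjamini-Hochberg adjustment) in R 4.3.3, after a check on simulated counts. Depth was 3394672 to 7271771 counts per library. The limit of 3 counts covers counting error only, since there were no molecular identifiers. Replicates differed by more than sampling noise (chi-square per degree of freedom, 4.24 to 12.6). Alternatives were other scalings and filters, DESeq2 1.42.0, limma 3.58.1 on log2(signal + 1), leaving out each library, and a replicate block. The members and lists were chosen with earlier results of these data known. The text names all members and, per related list and for the luminal markers, up to 3 genes in each direction by adjusted p. In the TGF-beta and BMP list, the other genes past the threshold are named too. CTNNA1, CTNNB1, JUP, GRHL2, TGFB3, TGFBI, HOXB13, FOXA1, S100A4, COL1A1, ITGA3, LUM, DCN and genes at 0 were picked after their values were seen. Coordinates are those of GENCODE 44. A few genes are not reported here.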

Additional observations from a re-analysis of the deposited data

How the results depend on the processing

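Of the 14 members past the threshold, 9 (CLDN1, CLDN4, DSP, KRT18, ST14, TWIST1, TGFB1, TGFB2 and ITGB1) kept their call in each alternative that tested them, and CDH2, EPCAM, DSC2, KRT19 and SMAD3 lost it in at least 1. Of 17 tested members not past it, CDH3, CLDN3 and SMAD7 passed it in at least 1. The members that rose numbered 8 to 12 in the alternatives, except for 6 with at least 10 counts in every library, which by construction leaves out CDH2, CLDN1, TGFB1 and TGFB2. The members that fell numbered 3 to 5. With 1 library left out, 8 to 9 rose, 3 to 4 fell and 2124 to 3070 genes in all were called, against 3125. Scaling by library totals alone shifted the all-gene median (log2) from 0.02 to 0.14, and 65.7% of calls were then higher with Dox in place of 46.4%. Against that shift, members near 0 changed sign, none of them past the threshold: under library totals alone CDH1 (0.0017), TJP1 (0.041), ESRP1 (0.088) and SMAD4 (0.081), under upper-quartile scaling ESRP1 (0.022) and SMAD4 (0.015). With 1 library left out, SMAD4 ranged from -0.15 to 0.043 (0.0031 and 0.043 without replicate 1 or 3 without Dox), FN1 from -0.40 to 0.11 (without replicate 1 with Dox), CDH1 from -0.25 to 0.021 (without replicate 2 with Dox), TJP1 from -0.18 to 0.0055 and ESRP1 from -0.065 to 0.013 (both without replicate 3 with Dox). The cause was not tested. The numbers of the replicates mark no known pairing, and deviations from the condition means correlated by number with r = -0.01, 0.25 and 0.09. Between unlike numbers r ran from -0.18 to 0.12. Whether libraries with the same number share a batch was not tested. With the replicate block 3537 genes were called, 10 members rose and 3 fell, and KRT19 lost its call (-0.74, edgeR adjusted p = 0.0520). At these depths, a fall or a small rise of genes with at most 3 counts in any library, such as ZEB2, SNAI1 and SPARC, was not detectable.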

Other observations

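Integrin genes outside the naming rule, picked after their values were seen, did not move alike. ITGA3, an alpha subunit gene that pairs with the beta subunit of ITGB1, had 5.75, 2.17 and 3.14 CPM without Dox and 9.35, 10.3 and 12.3 CPM with Dox (log2 fold change 1.54, standard error 0.32, edgeR adjusted p = 0.00180). ITGAV, whose product pairs with the subunits of ITGB5 and ITGB6, had 152, 146 and 178 CPM without Dox and 172, 159.7 and 158 CPM with Dox, with a log2 fold change of 0.04 (edgeR adjusted p = 0.851). ITGA2 had -0.02 (edgeR adjusted p = 0.939). Of the latent TGF-beta binding protein genes, LTBP2 had 1.39 (edgeR adjusted p = 0.00329), LTBP3 0.14 (edgeR adjusted p = 0.660) and LTBP4 0.53 (edgeR adjusted p = 0.0656).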
